A study of Mus musculus and Bos taurus with 26 samples.

Results

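Late 2-cell mouse embryos that had received mRNA for mutant Hdac1 as zygotes and then water in both blastomeres were compared with embryos that had received water as zygotes. The comparison used 4 of the 26 libraries of the study, 2 from each group, all taken 36 h after fertilization. Genes with at least 1 FPKM (fragments scaled to gene length and library total) in at least 2 of these 4 libraries were kept, which left 14232 of the 27988 genes in the mouse values. The whole series held 22 mouse libraries in 11 groups of 2, and bovine libraries that are not described here. The series' title names the question: is HDAC1/2 required when the embryo starts to transcribe its own genome (zygotic genome activation, ZGA)?

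The control group is called water below. The other group is called mutant-then-water: its second injection was made at the early 2-cell stage. The group called single-injection mutant received the mutant mRNA as zygotes with no further injection and was also taken at 36 h. No group received water at both stages, so the second injection and the mutant mRNA cannot be told apart in the main comparison. The labels do not say which residues of Hdac1 were changed, which strain was used, how many embryos went into a library or whether replicates were separate batches of embryos. What the p-values measure is thus the spread between libraries, which may be technical only. Whole embryos were lysed, and in such bulk samples fewer cells of a kind and less RNA per cell cannot be told apart.

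HDAC1 and its paralog HDAC2 remove acetyl groups from histone tails and other proteins, and act as the catalytic subunits of the Sin3, NuRD and CoREST complexes, which repress transcription. In the mouse, a minor wave of transcription starts in the zygote and a major wave follows in the late 2-cell embryo, while messages stored in the oocyte are degraded. The major wave is known for genes of ribosome assembly, translation and RNA processing. Before it, a short burst of 2-cell genes such as Zscan4 and Usp17l is driven by the transcription factor Dux.

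In the water libraries 11352 and 11941 genes reached 1 FPKM, and 14411 and 14031 did so in the mutant-then-water libraries. Over all 22 mouse libraries this number ran from 10704 to 14554. Genes listed at exactly 0 numbered 11551 and 9020 in water and 6117 and 6043 in mutant-then-water libraries. The FPKM value of a single fragment, as estimated from low genes, was 0.957 times that of water replicate 1 in water replicate 2, and 1.22 and 1.08 times in the mutant-then-water libraries. The single-injection libraries stood at 1.37 and 0.973. With 3 of 5 settings of this estimate the pairs of libraries did not agree, so nothing is drawn from it about the genes at 0. The 10 most abundant genes held from 8.05% to 15.1% of the summed FPKM of these 4 libraries, and mitochondrial mRNAs from 7.80% to 15.2%. Replicates correlated across the tested genes with r = 0.959 in water, 0.97 in mutant-then-water and 0.929 in single-injection mutant embryos, a description of libraries and not of independent points. All 16 marker genes of 2-cell embryos reached 1 FPKM in every library of both groups. Of 12 cumulus and granulosa markers 0 reached 1 FPKM in both water libraries and 3 did so in both mutant-then-water libraries, with summed levels of 2.30 and 2.77 against 10.9 and 8.51 FPKM. Of 12 blood markers 2 reached it in water and 6 in mutant-then-water, with summed levels of 8.14 and 9.11 against 141 and 148 FPKM. The globin genes Hbb-bs and Hbb-bt were listed at 0 in all of these libraries, and Ptprc, the common antigen of white cells, was at most 0.0875 FPKM. Other blood markers were present in mutant-then-water libraries: Hba-a1 at 60.4 and 42.1, Cd74 at 43.5 and 43.8 and Lyz2 at 13.2 and 12.4 FPKM. Of 8 sperm markers 1 reached 1 FPKM in both water and 2 in both mutant-then-water libraries, with Smcp listed at 0 in all 4 and Prm1 at most 0.632 FPKM. Tnp1 was listed at 0 in both water libraries and stood at 6.84 and 1.82 FPKM in mutant-then-water libraries. The summed sperm markers were at 35.0 and 29.7 FPKM in water against 41.0 and 37.6 FPKM. The part of these marker genes, and of the number of genes listed at 0, in the results was not tested.

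Hdac1, a protein-coding gene on the minus strand of chromosome 4 (129516104 to 129542713, GRCm38), was at 92.2 and 89.3 FPKM in water and at 917 and 805 FPKM in mutant-then-water libraries. Both mutant-then-water libraries lay well above both controls, with a log2 change of 3.23 ± 0.18 (SE; adjusted p = 2.28e-09, limma); every log2 change given here is on the log2(FPKM + 1) scale, which understates the change of low genes. These values count injected and embryonic Hdac1 transcripts together. In the single-injection mutant libraries Hdac1 stood at 4952 and 4612 FPKM at 36 h, and in mutant embryos taken at 24 h at 4007 and 2952 FPKM. Mutant-then-water embryos therefore had less measured Hdac1 mRNA than single-injection embryos, a log2 difference of −2.47 ± 0.18 (adjusted p = 2.84e-06, limma). Embryos that had received mutant Hdac1 and then Kdm5b mRNA were near the mutant-then-water level, at 824 and 859 FPKM. With wild-type Hdac1 mRNA the level was 2707 and 2960 FPKM at 36 h.

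Hdac2, the paralog (chromosome 10, 36974544 to 37001889, plus strand), was at 26.4 and 19.2 FPKM in water and 56.8 and 59.4 FPKM in mutant-then-water libraries. The groups did not overlap, and the rise was 1.33 ± 0.14 (adjusted p = 1.06e-06, limma). Kdm5b, a demethylase of histone H3 lysine 4 (chromosome 1, 134560171 to 134635285, plus strand), went the other way, from 143 and 124 FPKM to 61.3 and 74.0 FPKM. Its fall of −0.97 ± 0.25 passed the test (adjusted p = 0.00301, limma).

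**Figure D1:**
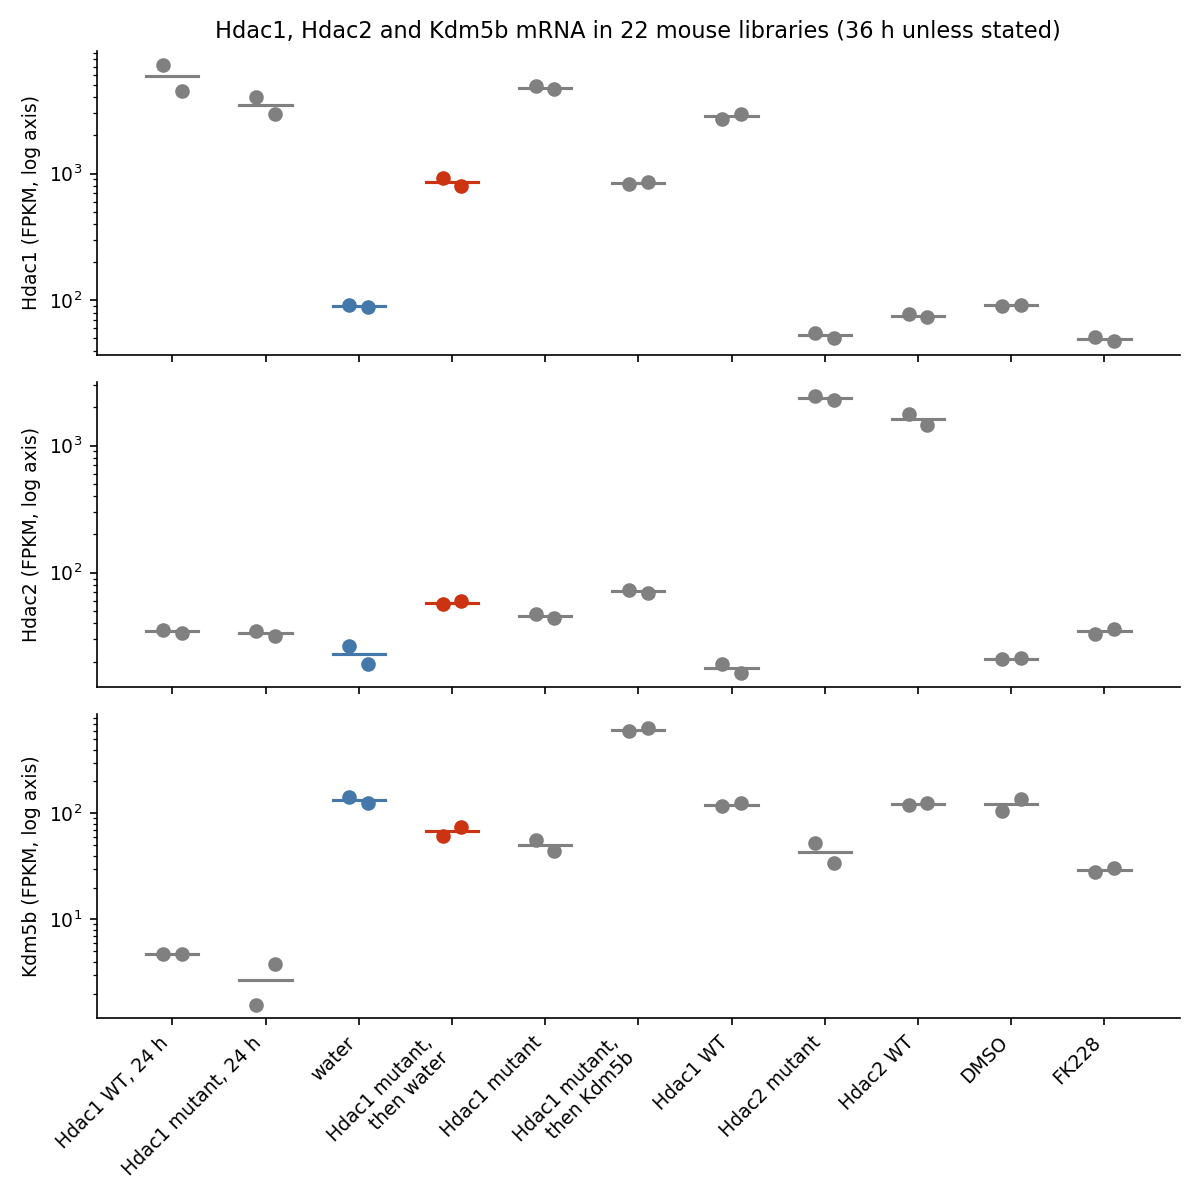
FPKM of Hdac1, Hdac2 and Kdm5b on a log axis in the 22 mouse libraries, with a point for each library and a bar for the mean of the 2 libraries of a group; water is blue and mutant-then-water red. Hdac1 in mutant-then-water libraries, at 917 and 805 FPKM, lies between the water libraries and the single-injection mutant libraries at 4952 and 4612 FPKM.

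Of the 14232 genes, 5308 (37.3%) were higher and 3160 (22.2%) lower in mutant-then-water than in water embryos, at a Benjamini-Hochberg adjusted p under 0.05 in limma. By at least 2-fold, 3996 (28.1%) were higher and 1818 (12.8%) lower. The 2 groups did not overlap in 8449 of the 8468 called genes. The calls rest on the same values, so this adds no support to them. The share without overlap over all tested genes is not given here. By construction the filter holds some genes that had to differ. A group of 2216 genes passed it through the mutant-then-water libraries alone, and 2109 of them were called higher and 0 lower. Another 289 passed through the water libraries alone, with 218 called lower. With no filter, of 24229 genes 6607 (27.3%) were higher and 3138 (13.0%) lower. The number of genes listed at 0, given above, moved the same way as the rise of silent genes, and its part in these counts was not tested.

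The share of falls grew with the level. Of 2483 genes with a mean of 3 to 4 on the log2(FPKM + 1) scale, 33.3% were higher and 24.4% lower, and among the 895 genes with a mean of 6 or more 13.7% were higher and 46.3% lower. Of the 1193 genes with a mean under 1, 964 reached 1 FPKM in 1 group alone, so the filter fixes their change and nothing is read from that end. The median log2 change of all genes was 0.227 as deposited, 0.048 after median-ratio scaling between libraries and −0.080 after quantile normalization. Higher genes made up 62.7% of the calls as deposited, 54.8% after median-ratio scaling (4605 higher, 3802 lower) and 47.0% after quantile normalization (3827 higher, 4322 lower). The split between higher and lower genes, unlike the number of calls, thus depended on the scaling.

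**Figure D2:**
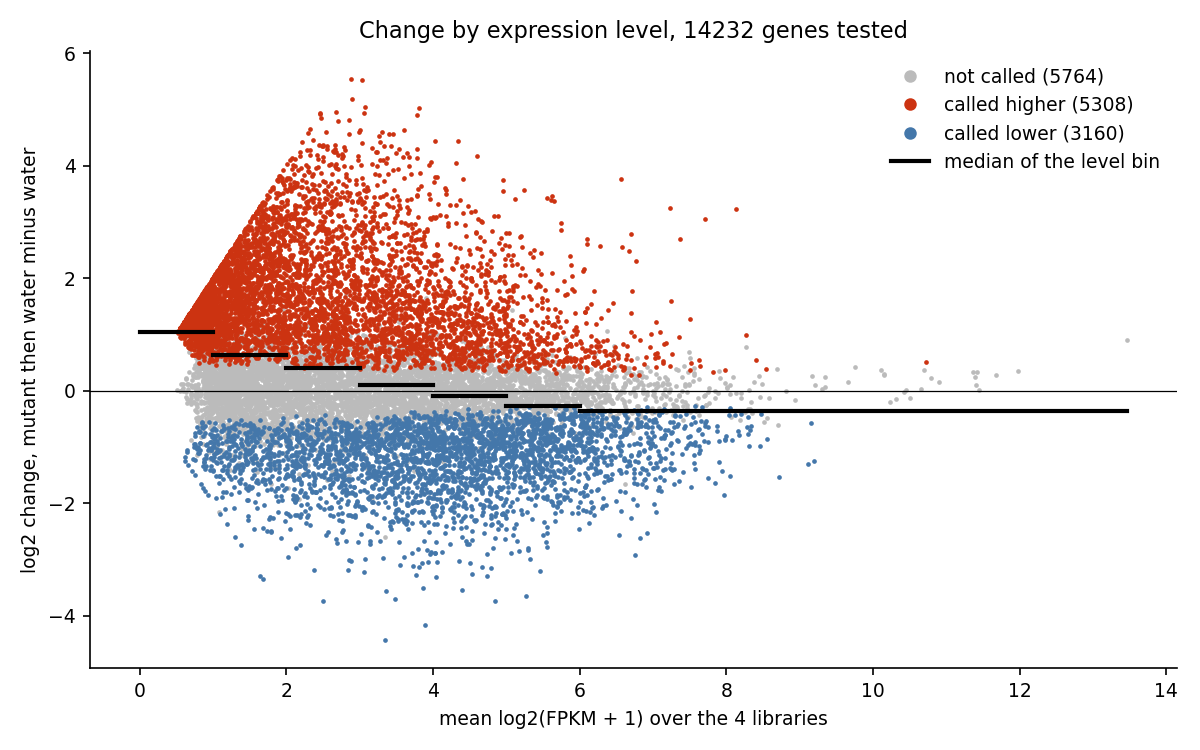
Log2 change of each tested gene, mutant-then-water minus water, against its mean log2(FPKM + 1) over the 4 libraries, with called genes coloured and black lines at the median of each bin. The medians run from 0.0917 at a mean of 3 to 4 to −0.358 among the most abundant genes; at the left edge the filter itself keeps genes that differ.

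The genes with the largest rises were nearly silent in the water libraries. Bmp4, a secreted growth factor of the TGF-beta family (minus strand of chromosome 14, 46383520 to 46390669), was at 0.155 and 0 FPKM in water and at 50.3 and 47.8 FPKM in mutant-then-water libraries. Both of the latter were far above both controls, a rise of 5.54 ± 0.26 (adjusted p = 7.58e-10, limma). Gata2, which encodes a GATA factor of trophoblast and blood progenitors (chromosome 6, 88193891 to 88207032, plus strand), was at 1.06 and 2.10 FPKM in water against 90.0 and 61.4 FPKM. Its groups did not overlap, which the choice of these genes required, and the rise was 4.90 ± 0.23 (adjusted p = 7.58e-10, limma). Atf3, a stress-induced transcription factor (chromosome 1, 191170296 to 191218039, minus strand), was listed at 0 in one water library and stood at 0.851 in the other, against 39.8 and 34.9 FPKM, a rise of 4.81 ± 0.29 (adjusted p = 4.3e-09, limma). All 3 were near the same level after the single injection: 50.0 and 45.8 FPKM for Bmp4, 99.4 and 93.1 FPKM for Gata2, 45.1 and 36.8 FPKM for Atf3. The 150 bases before RefSeq's start of these genes are printed to show what lies upstream of 3 of the 12 largest rises, 5′ to 3′ on the gene's strand from RefSeq's GRCm38.p6, in lower case with matches to searched motifs in capitals.
Bmp4: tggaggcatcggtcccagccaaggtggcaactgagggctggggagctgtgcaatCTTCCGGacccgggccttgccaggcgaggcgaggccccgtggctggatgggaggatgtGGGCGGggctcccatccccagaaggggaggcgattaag
Gata2: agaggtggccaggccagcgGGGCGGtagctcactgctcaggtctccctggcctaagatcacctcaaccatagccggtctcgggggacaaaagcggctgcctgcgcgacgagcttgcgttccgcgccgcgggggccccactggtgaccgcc
Atf3: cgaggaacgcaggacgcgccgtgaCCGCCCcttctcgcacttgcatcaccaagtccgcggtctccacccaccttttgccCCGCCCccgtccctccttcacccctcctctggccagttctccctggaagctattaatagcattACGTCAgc
The windows are chr14:46390670-46390819 for Bmp4, minus strand, chr6:88193741-88193890 for Gata2, plus strand, and chr1:191183334-191183483 for Atf3, minus strand, whose RefSeq start lies inside the GENCODE interval given above and not at its outer end. Capitals mark GC boxes (GGGCGG or its reverse complement), an ETS core (CCGGAAG or its reverse complement) in Bmp4 and a partial cAMP response element (TGACGT, here on the other strand) in Atf3. In the 250 bases before the start, a GC box was found in 45.9% and this partial element in 8.05% of 16962 RefSeq promoters matched to the table, and in 59.1% and 9.93% of the 10291 that belong to tested genes. The CCAAT box (CCAAT), the TATA box (TATAAA), the E-box (CACGTG) and a GATA motif (AGATAA) were searched in the same way, and these letters are not in the 3 windows shown.

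Among the 12 largest rises were also Oxct2b and Oxct2a, a pair of testis-type ketone-body enzymes whose reads may be shared. Oxct2b went from 0.192 and 0.224 FPKM to 55.2 and 53.7 FPKM (5.52 ± 0.18, adjusted p = 3.56e-11, limma). Prtn3, a protease of neutrophil granules, went from 1.52 and 1.38 FPKM to 69.4 and 88.8 FPKM (5.02 ± 0.25). Sox8, Sp9 and Rflna rose by between 4.80 and 5.05, with all mutant-then-water libraries at 31.9 FPKM or more and no water library above 1.12. Sox8 and Sp9 encode developmental transcription factors and Rflna an actin-organising protein. Pyy, a gut peptide hormone, and Wnt16, a secreted Wnt ligand, were listed at 0 in both water libraries. They stood at 41.0 and 21.0 FPKM (Pyy) and 29.0 and 20.2 FPKM (Wnt16) in mutant-then-water embryos (adjusted p = 1.71e-06 and 5.52e-08, limma).

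Several of the 12 largest falls were in genes abundant in water embryos, among them parts of the ribosome or of its assembly. Fcf1, needed for cleavage of the precursor of 18S rRNA (plus strand of chromosome 12, 84970897 to 84983303), was at 69.4 and 55.7 FPKM in water and 2.37 and 2.64 FPKM in mutant-then-water libraries. The groups were far apart, with a change of −4.17 ± 0.33 (adjusted p = 5.44e-08, limma). Rpl37a, a protein of the large subunit (chromosome 1, 72711290 to 72713813, plus strand), went from 111 and 165 FPKM to 6.25 and 15.2 FPKM (−3.65 ± 0.59, adjusted p = 7.31e-05, limma). Rps27, of the small subunit, went from 57.9 and 37.0 FPKM to 0 and 3.82 FPKM (−4.43 ± 0.85, adjusted p = 0.000326, limma). Its near-identical retrocopy Rps27rt also fell, and the reads of this pair may be shared, so both values are uncertain. Against wild-type Hdac1 embryos in place of water, the Rps27 change was −0.81 with an adjusted p of 0.427 (limma).

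Gata1, a transcription factor of red blood cells (X chromosome, 7959260 to 7978071, minus strand), went from 81.0 and 62.0 FPKM to 3.80 and 6.91 FPKM, the opposite direction to Gata2. Its change was −3.54 ± 0.29 (adjusted p = 8.04e-08, limma). Smyd5, of the SET and MYND family of methyltransferases, went from 43.0 and 40.0 FPKM to 3.60 and 3.20 FPKM (−3.27 ± 0.39). Bod1l, which protects stalled replication forks, Snx3, a sorting nexin of endosomes, and Pramel7 changed by between −3.73 and −3.26. Cmss1 and Defb25 were listed at 0 in both mutant-then-water libraries, against 11.1 and 7.61 FPKM (Cmss1) and 15.5 and 4.79 FPKM (Defb25) in water. Hist1h2ap, one of many near-identical histone H2A genes, was at 13.8 and 82.3 FPKM in water, which differ widely, and at 2.35 and 1.65 FPKM in mutant-then-water embryos (adjusted p = 3.36e-05, limma).

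**Figure D3:**
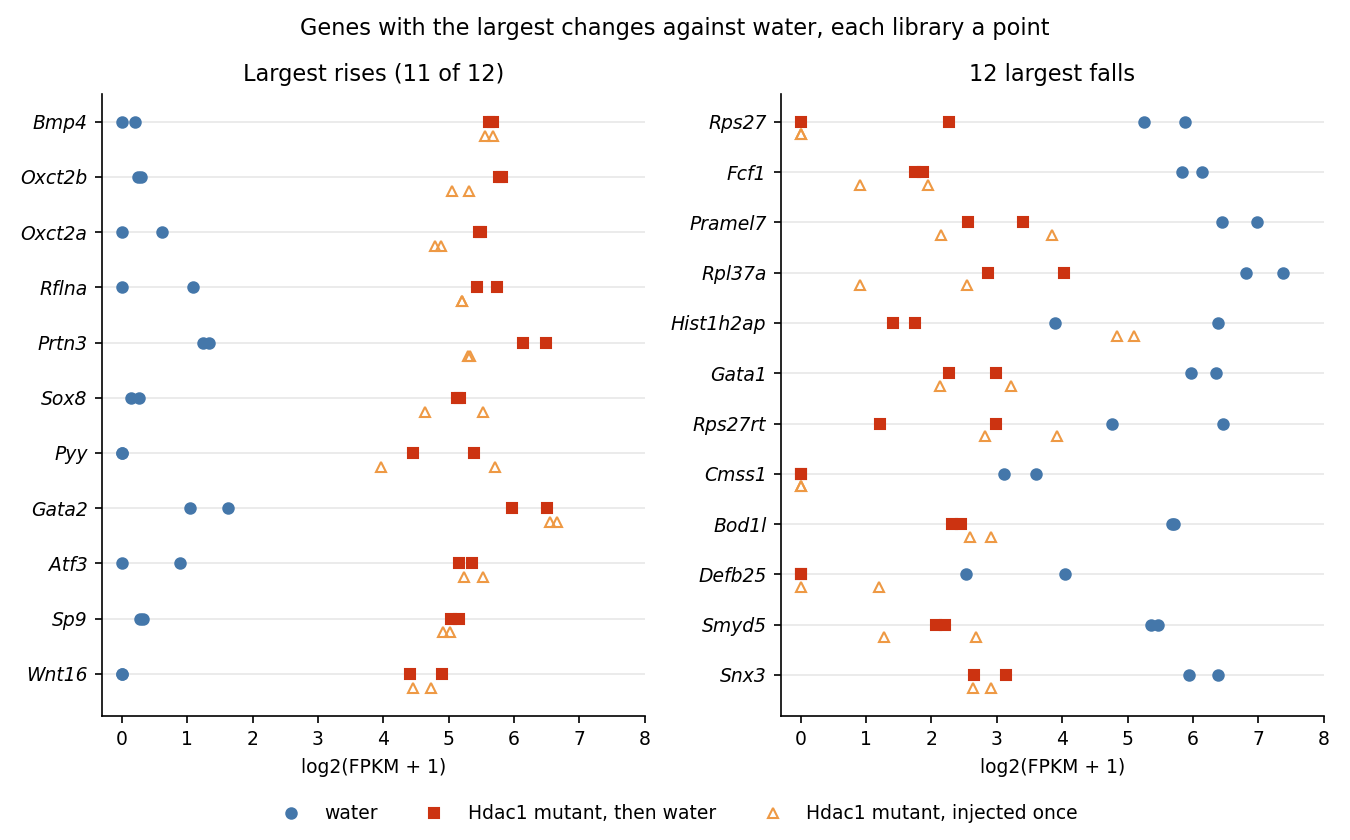
Log2(FPKM + 1) of 11 of the 12 genes with the largest rises and the 12 with the largest falls, with circles for water, squares for mutant-then-water and open triangles for single-injection mutant libraries. The genes were chosen with water and mutant-then-water libraries apart, so that gap is no result. The triangles lie on the side of the squares except for Hist1h2ap, at 27.7 and 33.3 FPKM after the single injection. The water libraries took part in the choice of the genes.

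The genes of the major wave were read from the wild-type Hdac1 embryos, which the main comparison does not use. From 24 to 36 h, 2023 (14.2%) of the tested genes rose and 1059 (7.44%) fell by at least 4-fold in them. Of the 2023 genes that switch on, 1252 (61.9%) were lower and 183 (9.05%) higher in mutant-then-water than in water embryos, and 890 of the lower ones by at least 2-fold. Their median level was 28.2 FPKM in water, 15.4 FPKM in mutant-then-water and 2.02 FPKM in the early wild-type embryos. The median log2 change was −0.85, against 0.227 over all tested genes. All tested genes had a lower median level in water, 5.54 FPKM, and falls were more frequent among abundant genes. Genes with a mean of 4 to 5 on the log2(FPKM + 1) scale had a median change of −0.092, with 26.1% higher and 35.3% lower. The part of expression level in the fall of the genes that switch on was not tested. In total these genes held 101213 and 97709 FPKM in water libraries and 53731 and 60302 FPKM in mutant-then-water libraries, with no overlap. After median-ratio scaling 1385 were lower and 135 higher.

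The 1059 genes that fall by at least 4-fold between 24 and 36 h are called cleared genes here. Of these, 333 (31.4%) were higher and 83 (7.84%) lower, 223 and 16 of them by at least 2-fold, with a median change of 0.223 beside 0.227 over all genes; without mutant-then-water replicate 1, 43 were lower. Their median level was 33.9 FPKM in early wild-type, 5.82 in water and 8.91 in mutant-then-water embryos. The 11150 genes in neither class had 4792 (43.0%) higher and 1825 (16.4%) lower members and a median of 0.406. With wild-type Hdac1 embryos as the control, 220 of the genes that switch on were higher and 1180 lower, and 546 of the cleared genes were higher and 28 lower. Over all genes that control gave 5847 (41.1%) higher and 2793 (19.6%) lower, but those embryos also define the classes.

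**Figure D4:**
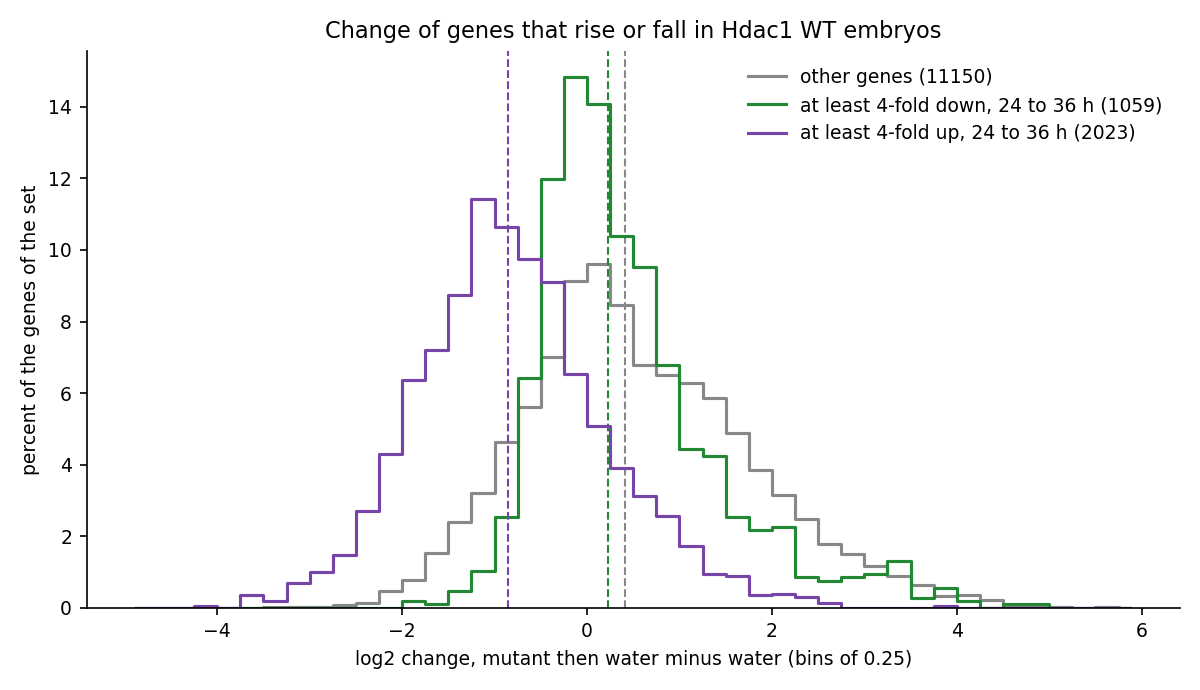
Distribution of the log2 change, mutant-then-water minus water, for genes that switch on, genes that are cleared and the other tested genes, in bins of 0.25 with broken lines at the medians. The genes that switch on are centred at −0.85, the cleared genes at 0.223 and the others at 0.406.

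Proteins of the cytosolic ribosome fell together. Of 80 measured genes 60 were lower and 0 higher, 31 of 46 for the large and 29 of 34 for the small subunit, with a median change of −1.01. Over all tested genes 37.3% were higher and 22.2% lower. Among those with a mean of 6 or more on the log2(FPKM + 1) scale the shares were 13.7% and 46.3%, with a median of −0.358. The part of expression level in the falls of this list and the next ones was not tested. Their summed level was 13265 and 13243 FPKM in water and 6288 and 7641 FPKM in mutant-then-water libraries, with no overlap. Rpl24, of the large subunit, went from 219 and 193 FPKM to 43.0 and 65.7 FPKM (−1.93 ± 0.23). Rps25 and Rps26, of the small subunit, changed by −1.95 ± 0.22 and −1.85 ± 0.23. Rps2 was an exception, at 251 and 216 FPKM in water and 176 and 230 FPKM in mutant-then-water embryos, where the groups overlapped (adjusted p = 0.412, limma).

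Factors that assemble the ribosome were also lower. Of 81 ribosome biogenesis genes 70 were lower and 1 higher, against 22.2% lower and 37.3% higher over all tested genes. The median of the list was −1.40. Utp4, a protein of the small-subunit processome (chromosome 8, 106893636 to 106923088, plus strand), was at 53.2 and 42.6 FPKM in water and 5.74 and 6.93 FPKM in mutant-then-water libraries. These do not overlap, and the change was −2.73 ± 0.17 (adjusted p = 5.92e-09, limma). Tbl3, of the same processome, changed by −3.03 ± 0.27. Fbl, the rRNA methyltransferase fibrillarin, went from 162 and 152 FPKM to 24.3 and 36.8 FPKM (−2.35 ± 0.31). Ltv1, which escorts the small subunit out of the nucleus, went from 71.8 and 63.7 FPKM to 16.5 and 17.7 FPKM (−1.92 ± 0.20). Ncl, nucleolin, did not pass the test, at 87.4 and 126 FPKM against 69.6 and 83.3 FPKM (adjusted p = 0.209, limma).

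Promoters of 68 of the 81 biogenesis genes were in the RefSeq table. The ETS core was found on either strand in the 250 bases upstream of 20 of them (29.4%), against 1660 of 16962 promoters in all (9.79%) and 1392 of the 10291 that belong to tested genes (13.5%; only 72.3% of tested genes had a promoter in the table). Of 80 cytosolic ribosomal protein genes 59 had a promoter in the table (73.75%), and 18 of these held the core (30.5%). With such partial coverage these shares are a description only. Utp4 and Ltv1 are shown as examples with a pair of such cores each; they were chosen for these letters after their values were seen.
Utp4: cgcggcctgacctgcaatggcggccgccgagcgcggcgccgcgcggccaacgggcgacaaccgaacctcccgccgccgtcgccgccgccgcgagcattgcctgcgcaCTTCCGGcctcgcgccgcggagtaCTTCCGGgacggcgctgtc
Ltv1: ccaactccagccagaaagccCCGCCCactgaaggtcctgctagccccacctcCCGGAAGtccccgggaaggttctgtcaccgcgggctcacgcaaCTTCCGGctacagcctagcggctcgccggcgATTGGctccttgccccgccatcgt
The windows are chr8:106893490-106893639 for Utp4, plus strand, and chr10:13193138-13193287 for Ltv1, minus strand, again the 150 bases before the start from GRCm38.p6. In Utp4 the cores begin at −43 and −19 from the start, both on the other strand. In Ltv1 they begin at −98 and −55, and capitals further mark a GC box at −130 and a CCAAT box on the other strand at −24. Gabpa, an ETS factor that can bind such letters, was itself lower, at 38.9 and 45.6 FPKM against 118 and 104 FPKM in water (−1.37 ± 0.19, adjusted p = 1.35e-05, limma). Gabpa was picked after its values were seen, and other ETS factors are not shown here. Binding was not measured, and any part of Gabpa in the falls was not tested.

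Other steps of gene expression moved the same way. Of 36 translation initiation genes 29 were lower and 3 higher (median −1.24), against 22.2% lower and 37.3% higher over all tested genes. Eif3c, a subunit of the factor that loads the small subunit, went from 130 and 115 FPKM to 16.8 and 17.3 FPKM (−2.78 ± 0.19). Eif2s3x, a subunit of the factor that brings the initiator tRNA, changed by −2.90 ± 0.20, and Eif6, which acts on the large subunit, by −2.62 ± 0.26. Of 31 RNA polymerase subunits 20 were lower and 3 higher (median −1.08), with Znrd1, a subunit of RNA polymerase I, at 35.2 and 31.8 FPKM in water and 1.77 and 4.79 FPKM in mutant-then-water embryos. Polr2a, the largest subunit of RNA polymerase II, did not pass, at 23.0 and 16.6 against 19.1 and 22.7 FPKM (adjusted p = 0.762, limma).

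Of 57 pre-mRNA splicing genes 30 were lower and 1 higher (median −0.59), led by Lsm2 and Sf3a1. Among all tested genes 22.2% were lower and 37.3% higher. The 20S and 19S proteasome had 21 lower and 4 higher genes of 38 (median −0.68), with the catalytic subunit gene Psmb5 going from 39.7 and 53.8 FPKM to 3.90 and 7.50 FPKM. In the CCT chaperonin, a ring complex that folds actin and tubulin, 5 of 8 subunit genes were lower and 0 higher (median −1.07). Cct5, Cct7 and Cct8 were the 3 that did not pass the test. Subunits of 1 complex thus differed: Tcp1 went from 116 and 111 FPKM to 47.0 and 40.3 FPKM, while Cct8 stood at 82.2 and 95.0 against 107 and 102 FPKM.

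Lists of other housekeeping genes had medians closer to the 0.227 of all tested genes, though most still lay below it. With the filter, 37.3% of all tested genes were higher and 22.2% lower. Aminoacyl-tRNA synthetases, which charge tRNAs, had 4 higher and 6 lower of 19, with Sars higher and Eprs lower. With no filter on low values, where 27.3% of 24229 genes were higher and 13.0% lower, mitochondrial ribosomal proteins had 8 higher and 21 lower of 76. The nuclear-encoded respiratory chain had 10 higher and 21 lower of 73. DNA replication had 2 higher and 14 lower of 38 with the filter (median −0.27). Gmnn, the licensing inhibitor geminin, was at 246 and 245 FPKM in water and 75.2 and 72.7 FPKM in mutant-then-water libraries (−1.72 ± 0.14), whereas Pcna, the sliding clamp, did not pass, at 89.6 and 99.4 against 96.3 and 106 FPKM. Of the 13 mitochondrially encoded mRNAs only mt-Nd4 passed, higher by 0.50 ± 0.18 (adjusted p = 0.024, limma), and it lost that call after median-ratio scaling and without mutant-then-water replicate 1 or water replicate 2.

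**Figure D5:**
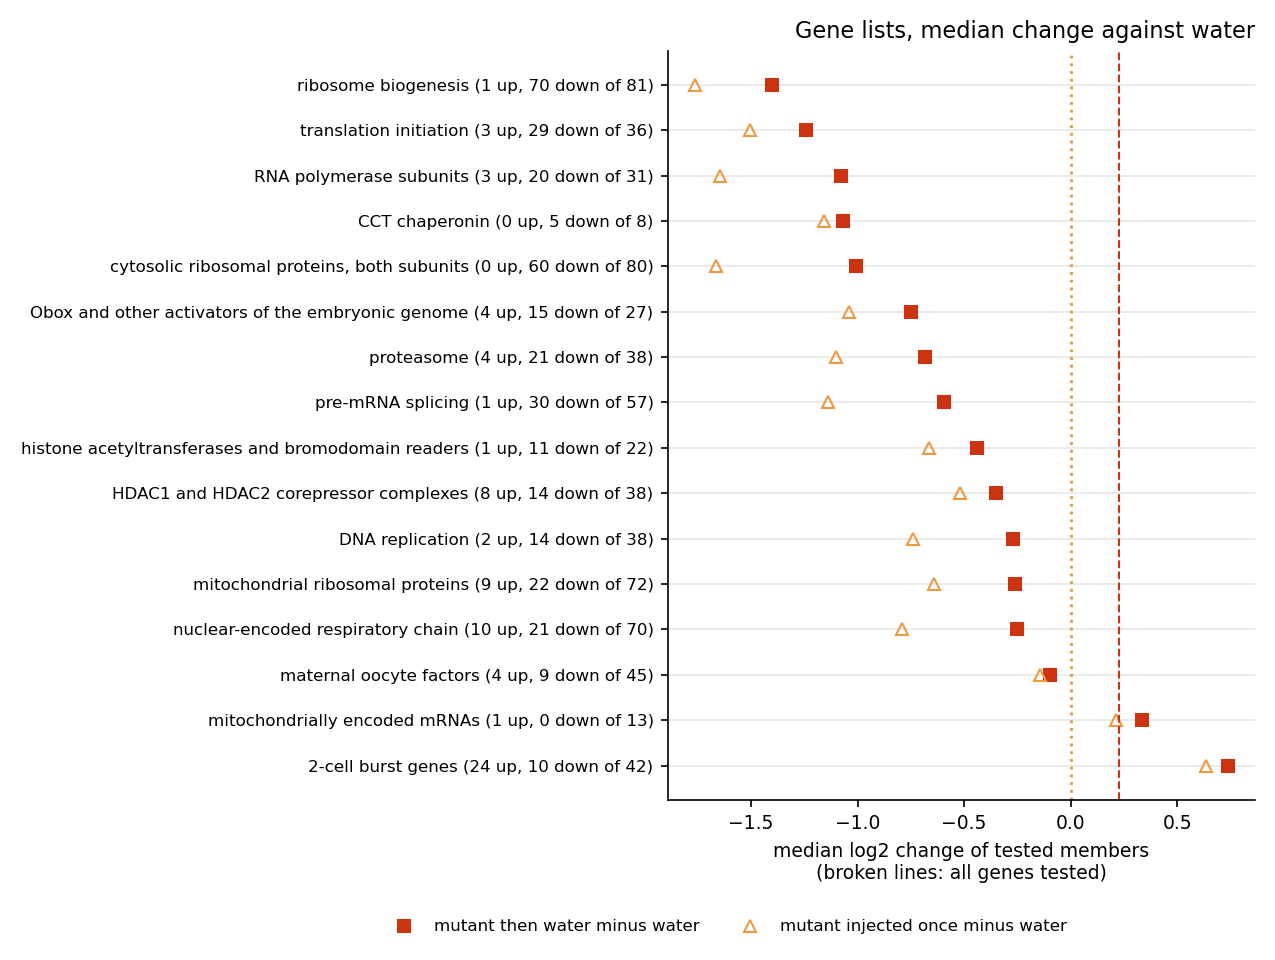
Median log2 change of 16 gene lists against water, in mutant-then-water and in single-injection mutant embryos, with the numbers of higher and lower members in mutant-then-water embryos in the labels and broken lines at the medians of all tested genes. Ribosome biogenesis lies at −1.40 and translation initiation at −1.24, while the 2-cell burst genes lie at 0.74; the 2 comparisons share the water libraries.

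The short-lived 2-cell genes went both ways. Of 42 such genes 24 were higher and 10 lower (median 0.74), against 37.3% and 22.2% of all tested genes. Zscan4e, a telomere-associated zinc finger gene, was at 5.45 and 6.99 FPKM in water and 77.9 and 60.5 FPKM in mutant-then-water embryos (3.28 ± 0.26). Usp17le, a deubiquitinase gene, went from 3.02 and 4.24 FPKM to 49.4 and 51.9 FPKM (3.49 ± 0.23). Duxf3, the Dux gene in these values, was low throughout, at 0.604 and 0.607 against 2.43 and 2.87 FPKM, and passed the test (1.18 ± 0.26, adjusted p = 0.000964, limma). Trim43c, in contrast, went from 76.2 and 79.7 FPKM to 9.41 and 14.6 FPKM (−2.63 ± 0.27), and Pramel7 from 86.4 and 125 FPKM to 4.90 and 9.55 FPKM. These genes sit in families of near-identical copies and can share reads, so the split between family members is uncertain.

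Known activators of the embryonic genome had 15 lower and 4 higher genes of 27 (median −0.75), against 22.2% and 37.3% of all tested genes. Obox6, of the Obox homeobox family (chromosome 7, 15833241 to 15839678, minus strand), was at 142 and 123 FPKM in water and 11.5 and 15.6 FPKM in mutant-then-water libraries. These are far apart (−3.21 ± 0.21, adjusted p = 8.79e-09, limma). Dppa2 and Dppa4, partner proteins that open chromatin at early genes, changed by −2.43 ± 0.21 and −1.72 ± 0.12. Nr5a2, an orphan nuclear receptor, went from 73.2 and 61.7 FPKM to 21.0 and 24.4 FPKM, and Smarca4, the ATPase of the BAF complex, from 48.5 and 44.0 FPKM to 12.0 and 13.3 FPKM. Klf17, a zinc finger factor, changed by −2.06 ± 0.14. Klf5 and Obox2 were among those that rose, by 0.95 ± 0.14 and 1.24 ± 0.22.

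Maternal factors of the oocyte had 4 higher and 9 lower of 48 with no filter, against 27.3% and 13.0% of all genes. The most abundant of the lower ones was Dppa3, which guards the maternal genome's DNA methylation, at 773 and 666 FPKM in water and 243 and 251 FPKM in mutant-then-water embryos (−1.53 ± 0.13). Zar1l fell by −2.20 ± 0.33. Plat, the tissue plasminogen activator, rose from 3.51 and 5.55 FPKM to 25.6 and 32.4 FPKM. Oosp1, an oocyte-secreted protein, overlapped between the groups, at 245 and 402 FPKM against 244 and 411 FPKM.

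Among the histone deacetylases themselves, 6 of 18 genes were higher and 2 lower with no filter, the injected Hdac1 among the higher; these shares are near the 27.3% and 13.0% of all genes. Hdac11, the lone class IV enzyme, was at 0.0295 and 0.456 FPKM in water and 14.9 and 12.9 FPKM in mutant-then-water embryos (3.60 ± 0.32, adjusted p = 1.52e-07, limma). Hdac7, a class IIa enzyme, went from 0.108 and 0.160 FPKM to 3.95 and 3.92 FPKM. The lower ones were sirtuins, deacetylases that use NAD: Sirt1 went from 115 and 102 FPKM to 27.7 and 29.0 FPKM (−1.90 ± 0.16) and Sirt6 changed by −2.22 ± 0.41.

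The corepressor complexes that hold HDAC1 and HDAC2 had 8 higher and 14 lower genes of 39 with no filter (27.3% and 13.0% of all genes). Mta2, a scaffold of NuRD, went from 235 and 220 FPKM to 43.7 and 49.1 FPKM with no overlap (−2.27 ± 0.17, adjusted p = 2.5e-08, limma). Cdk2ap1, a small NuRD subunit, changed by −2.12 ± 0.14, Mier3 by −1.92 ± 0.13 and Kdm1a, the demethylase of CoREST, by −1.15 ± 0.20. Ing2, a Sin3 subunit that reads H3K4 methylation, rose from 8.21 and 11.9 FPKM to 44.6 and 40.4 FPKM. Sin3a itself did not pass, at 88.9 and 91.2 against 76.2 and 83.5 FPKM (adjusted p = 0.232, limma).

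Histone acetyltransferases and bromodomain readers, the opposing enzymes and their readers, had 1 higher and 11 lower of 22 (median −0.44). Among all tested genes 37.3% were higher and 22.2% lower. Kat2b went from 6.24 and 7.45 FPKM to 0.553 and 0.967 FPKM (−2.16 ± 0.34), and Ep300, the p300 acetyltransferase, from 117 and 74.1 FPKM to 44.0 and 45.8 FPKM (−1.04 ± 0.21). Enzymes of H3K4 methylation had 5 higher and 7 lower of 24 with no filter, against 27.3% and 13.0% of all genes. Men1, menin, a partner of the MLL methyltransferases, went from 3.11 and 6.14 FPKM to 31.3 and 36.9 FPKM (2.69 ± 0.29), the opposite direction to Smyd5 and Kdm5b.

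Polycomb, the other large repressor system, had 10 higher and 11 lower of 29, against 37.3% and 22.2% of all tested genes. Its median of −0.03 turned positive without either mutant-then-water library. Epop, an adaptor of PRC2 (chromosome 11, 97627389 to 97629702, minus strand), was at 1.96 and 3.96 FPKM in water and 61.3 and 64.9 FPKM in mutant-then-water libraries (4.06 ± 0.32, adjusted p = 5.03e-08, limma). Pcgf6, of a variant PRC1, went down, from 66.8 and 64.0 FPKM to 18.6 and 19.7 FPKM (−1.72 ± 0.19). Ezh2, the PRC2 methyltransferase, changed less than Epop and Pcgf6, by −0.41 ± 0.12. The DNA methylation machinery had 6 higher and 3 lower of 16 with no filter, against 27.3% and 13.0% of all genes. The maintenance factor Uhrf1 changed by 1.83 ± 0.17, the de novo methyltransferase Dnmt3b by 1.51 ± 0.18 and the dioxygenase Tet1 by −1.47 ± 0.27.

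Factors of later lineages were switched on in part. With no filter, 16 of 23 trophectoderm and GATA factors were higher and 2 lower, against 27.3% and 13.0% of all genes. At least 1 FPKM in both libraries was reached by 8 of the 23 in water, 18 in mutant-then-water and 18 in single-injection embryos. Krt18, a keratin of simple epithelia such as trophectoderm, went from 1.25 and 4.51 FPKM to 76.6 and 73.3 FPKM (4.43 ± 0.44). Cdx2, the transcription factor that specifies trophectoderm, was at 1.13 and 0.335 FPKM in water and 13.3 and 16.9 FPKM in mutant-then-water embryos (3.25 ± 0.23). Hand1, a trophoblast factor, rose by 4.19 ± 0.32, while Krt19 was listed at 0 in both water libraries and stood at 9.64 and 6.92 FPKM. The 2 that fell were Gata1, given above, and Gata4, at 69.1 and 63.5 FPKM in water and 15.1 and 16.9 FPKM in mutant-then-water embryos (−1.99 ± 0.17), whereas Gata2 and Gata6 rose.

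Pluripotency factors had 13 higher and 2 lower of the 20 with a value above 0, against 27.3% and 13.0% of all genes with no filter. Mycn went from 2.28 and 1.89 FPKM to 56.3 and 63.5 FPKM (4.30 ± 0.23), Sox2 from 2.99 and 6.78 FPKM to 33.8 and 46.4 FPKM (2.87 ± 0.32), and Utf1 rose by 2.65 ± 0.28. Pou5f1, which encodes Oct4, did not pass the test: its 96.7 and 124 FPKM in water overlapped with 122 and 160 FPKM (adjusted p = 0.194, limma). Nanog was listed at 0 in both water libraries and stood at 2.99 and 1.43 FPKM. Dppa5a and Sall4 were the lower ones, by −1.66 ± 0.17 and −0.94 ± 0.17.

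Developmental signalling genes, mostly silent at this stage, rose in several lists. Members near 0 in water cannot fall, so nothing is read from the 0 lower genes here or in the homeobox lists below. With no filter, 27.3% of all genes were higher and 13.0% lower. After quantile normalization 14 of 24 tested Hox genes were higher (median 0.746, 1.53 as deposited). The Wnt and Fgf list then had 15 higher and 1 lower of 21 tested, and the BMP and TGF-beta list 15 higher of 22. In the BMP and TGF-beta list of ligands, antagonists and Id targets 23 of 33 were higher and 0 lower with no filter, and 10 reached 1 FPKM in both water libraries against 22 in both mutant-then-water libraries. Besides the ligand Bmp4, the Id genes, which encode inhibitors of bHLH factors and are targets of BMP signalling, were higher: Id2 went from 2.26 and 3.20 FPKM to 53 and 53.3 FPKM (3.87 ± 0.23), Id3 rose by 3.34 ± 0.32 and Id1 by 1.41 ± 0.29. The inhibitory Smad6 went from 0 and 0.0751 FPKM to 5.56 and 4.50 FPKM. Of 39 Wnt and Fgf ligands with a value 27 were higher and 0 lower, and those at 1 FPKM in both libraries went from 5 to 21, with Wnt11 up by 4.12 ± 0.34. Fgf4 did not pass, at 16.0 and 10.8 against 11.2 and 7.77 FPKM (adjusted p = 0.156, limma).

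Of 39 Hox genes 32 were higher and 0 lower with no filter, and 1 reached 1 FPKM in both water libraries against 24 in mutant-then-water and 20 in single-injection embryos. Hoxa9 went from 0 and 0.311 FPKM to 11.4 and 14.2 FPKM (3.58 ± 0.36), and Hoxd1 from 1.19 and 0.830 FPKM to 21.0 and 17.1 FPKM (3.32 ± 0.23). The member already present in water embryos was Hoxa7, at 15.5 and 19.98 FPKM against 25.2 and 32.8 FPKM. Its groups did not overlap, and its rise of 0.67 ± 0.22 was small beside those of the silent members. Of 61 other homeobox genes 52 were higher and 0 lower, with 16 at 1 FPKM in both water and 51 in both mutant-then-water libraries. Msx1, a homeobox gene of craniofacial and limb development, went from 5.80 and 3.86 FPKM to 101 and 102 FPKM (4.16 ± 0.23), and Pitx3 and Lhx6 rose by 4.37 ± 0.22 and 4.27 ± 0.35.

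Neuronal and secretory genes had 22 higher and 2 lower of 43 with no filter, and voltage-gated channels 28 higher and 1 lower of 55. For all genes these shares were 27.3% and 13.0%. Elavl3, a neuronal RNA-binding protein, was at 6.75 and 9.21 FPKM in water and 49.8 and 39.8 FPKM in mutant-then-water embryos (2.35 ± 0.17). The lower channel was Kcnk6, a potassium leak channel that was abundant in water embryos, at 51.4 and 42.1 FPKM against 4.26 and 5.30 FPKM (−3.05 ± 0.23).

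Immediate-early genes, which respond fast to growth factors and stress, rose in nearly all measured members. With no filter 29 of 31 were higher and 0 lower, against 27.3% and 13.0% of all genes. Jun, of the AP-1 factor, went from 0.626 and 0.534 FPKM to 28.6 and 31.1 FPKM (4.28 ± 0.22, adjusted p = 1.18e-09, limma). Junb, of the same family, rose by 3.74 ± 0.17, and Dusp4, a phosphatase of MAP kinases, by 4.23 ± 0.20. Jund differed from its relatives, at 43.8 and 39.5 FPKM in water and 20.4 and 33.8 FPKM in mutant-then-water embryos, a change that did not pass (−0.64 ± 0.29, adjusted p = 0.0714, limma).

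The integrated stress response had 13 higher and 3 lower of 25 with no filter, against 27.3% and 13.0% of all genes. Ddit3, which encodes CHOP, went from 4.21 and 8.76 FPKM to 21.1 and 32.6 FPKM (1.94 ± 0.31), while Atf4, the factor upstream of it, went from 154 and 190 FPKM to 102 and 114 FPKM (−0.66 ± 0.15). Of 31 p53 targets 14 were higher and 4 lower with no filter. Gadd45g and Btg2 rose by 4.11 ± 0.35 and 3.84 ± 0.22. Trp53 itself did not pass, with overlapping values of 28.2 and 21.2 against 13.8 and 22.1 FPKM (adjusted p = 0.279, limma). Cdkn1a, the p21 inhibitor of cyclin-dependent kinases, went from 24.2 and 19 FPKM to 76.3 and 82.6 FPKM (1.84 ± 0.15).

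The Bcl2 family sets the threshold for cell death. It had 8 higher and 6 lower of 21 with no filter, against 27.3% and 13.0% of all genes. Its pro-apoptotic members split: Bbc3, which encodes PUMA, went from 2.28 and 1.88 FPKM to 30.7 and 36.5 FPKM (3.49 ± 0.35), and Bmf rose by 3.13 ± 0.40. Bax, the pore-forming effector, went from 16.8 and 17.6 FPKM to 3.64 and 4.18 FPKM (−1.89 ± 0.31). Heat shock genes had 9 higher and 4 lower of 19 (median 0.31), near the 37.3% and 22.2% and the median of 0.227 over all tested genes, though single members moved far. Hspa2, an Hsp70 of germ cells, went from 7.25 and 11.3 FPKM to 82.9 and 88.1 FPKM (3.10 ± 0.22), and Hspa1a, an inducible Hsp70, from 18.2 and 15.9 FPKM to 81.3 and 106 FPKM (2.38 ± 0.20). The related Hspa4 went down, from 40.6 and 37.9 FPKM to 11.2 and 10.02 FPKM (−1.79 ± 0.20).

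Cyclins, their kinases and kinase inhibitors had 14 higher and 13 lower of 38 with no filter, against 27.3% and 13.0% of all genes. The mitotic pair Ccnb1 and Cdk1 were lower, with Ccnb1 going from 220 and 238 FPKM to 80.0 and 91.5 FPKM (−1.41 ± 0.14). Cdkn1c, an imprinted kinase inhibitor (chromosome 7, 143458339 to 143461050, minus strand), went from 13.7 and 15.3 FPKM to 166 and 155 FPKM (3.38 ± 0.23, adjusted p = 1.45e-08, limma). The imprinted genes as a list had 16 higher and 5 lower of 35 with no filter, among them Plagl1, a zinc finger gene, higher by 3.68 ± 0.36. Usp29 was lower by −3.12 ± 0.25 and Igf2r, the receptor that clears IGF2, by −3.05 ± 0.41, its water libraries differing widely at 70.4 and 25.9 FPKM. FPKM do not separate the parental alleles.

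Germline and meiosis genes had 10 higher and 4 lower of 34 with no filter, about the 27.3% and 13.0% of all genes, so the list as a whole did not stand out. Sycp3, a protein of the synaptonemal complex, went from 13.9 and 12.9 FPKM to 161 and 146 FPKM (3.42 ± 0.19), and Rec8, the meiotic cohesin, rose by 3.77 ± 0.33. Hosts of small nucleolar RNAs had 3 higher and 1 lower of 14, the lower one being Snhg15. Markers of other cells were at low levels with a few exceptions: 4 of 10 blood markers with a value were higher, led by Hba-a1, an alpha globin, at 0.418 and 2.34 FPKM in water and 60.4 and 42.1 FPKM in mutant-then-water embryos (4.56 ± 0.40). Cd74, of antigen presentation, rose by 4.42 ± 0.36 and Lyz2, a lysozyme of macrophages, by 3.55 ± 0.29.

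The comparison with the single injection asked how the response stood at a lower measured level of Hdac1 mRNA. The 2 mutant groups also differ in the second injection, so the Hdac1 level and that injection cannot be told apart here. Whether these groups were handled in the same session is not given in the labels. Mutant-then-water minus single-injection gave 1418 (9.96%) higher and 91 (0.639%) lower genes as deposited, with a median of 0.280 over all genes. After median-ratio scaling the median was 0.030 and the counts 113 and 103, and after quantile normalization they were 316 and 377, so the excess of higher genes rested on the scale of the deposited values. Single libraries mattered too: without mutant-then-water replicate 2 there were 85 higher and 12 lower genes, without its replicate 1 there were 649 and 44, and without single-injection replicate 1 there were 381 and 42. Without single-injection replicate 2 there were 1594 and 158. Against water, single-injection embryos had 4355 (30.6%) higher and 4294 (30.2%) lower genes; this comparison shares its controls with the main one, so only the values of each are set side by side. Genes that switch on from 24 to 36 h had a median change of −0.85 in mutant-then-water and −1.30 in single-injection embryos, with 1252 and 1543 lower. Tested directly, 409 of them were higher and 19 lower in mutant-then-water than in single-injection embryos as deposited (median 0.453), but only 28 and 13 after median-ratio scaling (median 0.181).

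The cytosolic ribosomal proteins stood between the other groups in mutant-then-water embryos. Their summed level was 6288 and 7641 FPKM in mutant-then-water and 4140 and 4359 FPKM in single-injection embryos, against 13265 and 13243 FPKM in water. The 3 groups did not overlap. Of 80 genes 30 were higher and 0 lower in mutant-then-water than in single-injection embryos as deposited, and 6 and 0 after median-ratio scaling. Their median change against water was −1.01 and −1.66. For ribosome biogenesis the medians were −1.40 and −1.76, for translation initiation −1.24 and −1.50 and for splicing −0.59 and −1.14. Of the 12 largest rises against water, 2 differed between the mutant groups, Oxct2b by 0.62 ± 0.18 and Prtn3 by 1.01 ± 0.25 (adjusted p = 0.0386 and 0.0245, limma), both higher in mutant-then-water embryos. Both lost this call after median-ratio scaling and without mutant-then-water replicate 2 or either single-injection replicate, and Oxct2b also without mutant-then-water replicate 1. Bmp4, Gata2 and Wnt16 were among those that did not pass (adjusted p = 0.946, 0.299 and 0.934, limma). Whether the lists and these genes differ in this was not tested.

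Of the 136 genes named in the comparison with water, 14 were higher and 2 lower in mutant-then-water than in single-injection embryos. The 2 were Hdac1 and Hist1h2ap. Over all tested genes 9.96% were higher and 0.639% lower, so the 14 higher genes were near the share of all genes. The further genes here were chosen for their difference between the 2 mutant groups. Vps45, of vesicle fusion, was at 9.40 and 10.4 FPKM in mutant-then-water, 1.47 and 0.548 FPKM in single-injection and 0 and 0.0568 FPKM in water embryos (difference 2.47 ± 0.50, adjusted p = 0.00928, limma). Rex1bd, Rpl31-ps17, Tmem258, Uqcrq and Pin4 were the other genes that were most above the single-injection level, and all but Uqcrq were listed at 0 in one single-injection library. All 6 lost the call without mutant-then-water replicate 2. Hspa2 and Hspa1a were higher in mutant-then-water embryos, by 1.08 and 0.97 (adjusted p = 0.0112 and 0.0102, limma), with 38.8 and 40.8 FPKM for Hspa2 after the single injection, but 0 of the 19 heat shock genes differed after median-ratio scaling. Lower were Hdac1-ps, a pseudogene that can share reads with Hdac1, and 3 histone H2A genes. Hist1h2ap, Hist1h2ao and H2ac14 differed by −3.40, −2.97 and −2.28. Hist1h2ao lost the call without any 1 of the 4 libraries, and H2ac14 without any but mutant-then-water replicate 2 (−1.18 without replicate 1). Oaz1-ps, another pseudogene, was at 2.73 and 5.69 FPKM in mutant-then-water against 37.1 and 42.2 FPKM in single-injection and 35.1 and 47.4 FPKM in water embryos (−3.02, adjusted p = 0.000117, limma).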

How the data were processed

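PolyA RNA of whole embryos was sequenced; the labels' protocols describe no strand marking, so overlapping or antisense genes may share reads. FPKM values per gene were deposited by the authors; the submitters' processing notes name Trimmomatic, HISAT2, featureCounts, Cufflinks, DESeq2 and GRCm38, with no version; which tool made which step is not given in the sources used here. Total depth is unknown, so no counting intervals are given, and an exact 0 can be a failed estimate. Relative depth was read from the commonest ratio of values under 0.5 FPKM in 15 pairs of libraries. With histogram bins of 0.002 and 0.005 (log2) the pairs fitted 1 set of depths to within 0.022 and 0.053; with bins of 0.001, 0.01 and 0.02 they disagreed by up to 1.34, 0.665 and 0.67. The first width was used, chosen after its result was seen, so these depths are estimates. No column of per-sample values was left without a sample.

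Log2(FPKM + 1) of genes with at least 1 FPKM in at least 2 of the 4 libraries was fitted with limma 3.58.1 (R 4.3.3) over all 22 mouse libraries, with a coefficient for each of 11 groups, a variance trend and 11 residual degrees of freedom; tests were two-sided, with Benjamini-Hochberg adjustment over 14232 genes. Errors are SE of the log2 change with n = 2 libraries a group. Counts with no filter come from a fit of the 24229 genes above 0 in any of the 4 libraries. Tested on simulated data for mutant-then-water minus water over 14232 genes, 48% of genes changed by 2-fold and 91% of those changed by 4-fold were called, and 5.44% of calls were unchanged genes. The simulation changed far fewer genes than were called in the data and used independent noise, so these rates need not hold for the data.

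The comparison, the 42 gene lists and the alternatives were chosen with earlier results of these data known. Named genes are the 12 largest rises and falls among called genes whose groups did not overlap, whose higher group averaged 5 FPKM or more, with no clone or predicted symbol; up to 3 called members of each list; Hdac1, Hdac2 and Kdm5b; and 6 each way against the single injection. Some genes that these rules select are not reported here. Further list members are named for their role, after their values were seen. Coordinates are GENCODE M21 on GRCm38, matched by symbol for 14024 of 14232 genes; promoters are RefSeq's. A comparison of promoter composition between rising and falling genes is void, because only 72.9% and 69.3% of them had a promoter in the table. Tables were handled with Python 3.11.15 and pandas 2.3.3.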

Additional observations from a re-analysis of the deposited data

How the results depend on the processing

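The higher and lower counts against water stayed within 1.5 times of 5308 and 3160 under the alternatives run (pseudocount 0.1, other filters, both scalings, fewer libraries in the fit, no variance trend, wild-type Hdac1 control), except for 3136 higher genes with a minimum of 5 FPKM. Leaving out 1 library gave 4602 to 5076 higher and 2489 to 2839 lower genes. Against the single injection the counts of 1418 and 91 were unstable: higher genes numbered 113 after median-ratio scaling, 316 after quantile normalization and 1 with only the groups compared in the fit (limma, 2 residual degrees of freedom), and 85 to 1594 without a library. Lower genes numbered 50 with a pseudocount of 0.1, 174 with no filter, 377 after quantile normalization and 4 with only the groups compared, and 12 to 158 without a library. Of the cleared genes, 546 were higher and 28 lower with the wild-type control, and 156 and 214 were lower after median-ratio scaling and quantile normalization; without a library the lower ones numbered 43 (without mutant-then-water replicate 1) to 86. The cause of these shifts was not tested, except that fewer libraries leave fewer degrees of freedom.

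Hdac1 turned to −1.72 against wild-type Hdac1 embryos, which carry injected Hdac1 mRNA themselves. Of 1895 settings of the 136 genes named against water 1880 kept their call, and 14 calls were lost in 6 genes: Rps27, Uqcrb, mt-Nd4, Kmt2a, Nr5a1 and Snhg15. Of the 12 genes named against the single injection, 10 lost their call in at least 1 setting (38 calls); Hdac1-ps and Hist1h2ap kept it in all. Medians of 8 lists changed sign in 12 settings. The replicate block (the replicate number as a term) gave 5338 and 3186 genes against water and 1471 and 93 against the single injection; same-numbered libraries did not deviate together in these comparisons (r = 0.0237 and −0.00443). Water and single-injection libraries did so weakly (r = 0.185), as did water and wild-type libraries (r = 0.209). In replicate 1 of all 3 groups mt-Atp8 was higher (14616 against 4747, 12481 against 4517 and 13931 against 5095 FPKM). Mutant-then-water replicate 1 was also the higher one for mt-Atp8, at 20289 against 11832 FPKM. In the DMSO, mutant Hdac2 and 24 h wild-type Hdac1 groups replicate 1 was the lower one. The block gave 4381 higher and 4325 lower genes for single-injection minus water and 5883 and 2809 against the wild-type control. No label says what a number marks. Total depth was unknown, which limits every value near 0.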

Other observations

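Over the whole mouse table of 27988 genes, 498 were under 0.1 FPKM in both water libraries and at least 1 FPKM in both mutant-then-water libraries, and 341 of them also reached 1 FPKM in both single-injection libraries. The reverse pattern, under 0.1 in both mutant-then-water and at least 1 in both water libraries, held for 16 genes. With at least 5 FPKM as the upper bound the numbers were 63 and 1, the 1 being Cmss1. Among the 63 were Large2, which extends glycans on dystroglycan (25.4 and 20.5 FPKM), Npy, a neuropeptide (18.0 and 11.1 FPKM), and Gstk1, a glutathione transferase (16.6 and 16.7 FPKM), all listed at 0 in both water libraries. These genes were chosen after their values were seen, and water libraries list more genes at 0, whose part in these numbers was not tested.

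Of 563 tested genes of the X chromosome 249 (44.2%) were higher and 95 (16.9%) lower in mutant-then-water than in water embryos, with a median log2 change of 0.525. The medians of the autosomes ran from 0.061 on chromosome 16 to 0.351 on chromosome 3. The sex of the embryos is not given in the labels used here.

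By gene type, 108 (14.8%) of 731 processed pseudogenes were higher and 201 (27.5%) lower (median −0.31), whereas of 226 lincRNA genes 93 were higher and 25 lower (median 0.52). Processed transcripts without a coding frame had 58 higher and 6 lower of 123. Protein-coding genes had 4777 (38.6%) higher and 2791 (22.6%) lower of 12371. Processed pseudogenes can share reads with their parent genes.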
